A study of Mus musculus with 2 samples.

Results

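The segment described here is the stretch of mouse chromosome 10 that surrounds Phlda1, the gene that encodes TDAG51 and that is disrupted in the TDAG51-/- mice. Its members were the array probes on chromosome 10 whose mapped position begins within 20 Mb of the start of the Phlda1 probe (chr10:110970234-110970293, plus strand, mm7), with Phlda1 itself left out. They were 620 of the 41174 probes of the array, 208 on the centromeric and 412 on the telomeric side, and they carried 410 gene names or accessions. The most centromeric member lay 19.91 Mb from Phlda1 and the most telomeric 19.07 Mb, which is also where the mapped probes of the chromosome end. The remaining 1322 probes of chromosome 10, all on the centromeric side, served as the reference.

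RNA came from the whole brains of female C57BL/6J dams, 8 weeks old, on postpartum day 0. Both arrays carried TDAG51-/- RNA in the Cy3 channel. The first array had TDAG51+/+ RNA in the Cy5 channel, and the second had RNA of TDAG51-/-Tg2 dams, which lack TDAG51 in the same way and carry a TDAG51 transgene from the brain-specific BAI1-AP4 promoter, active mainly in the cerebral cortex and hippocampus. The transgenic dams came from 1 founder line, backcrossed to C57BL/6J and then crossed with TDAG51-/- mice. Only the TDAG51+/+ dams had the intact locus on both copies of chromosome 10. Each comparison rested on 1 array without a dye swap, so that no difference has a replicate check, no test was possible, and dye, array and genotype cannot be told apart. The number of dams behind each RNA, the strain of the cells in which the locus was targeted and whether both arrays used the same TDAG51-/- RNA are not given in the sources used here.

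A targeted allele is inherited together with the DNA on each side of it, and backcrossing shortens that flank only gradually, most slowly close to the targeted gene. Genes beside a targeted locus can therefore differ between mutant and wild-type mice through sequence carried along with the allele, and a selection cassette or a lost regulatory element can also act on near neighbours. Differences of that kind depend on position rather than on the function of the gene, and they can be shared by TDAG51-/- and TDAG51-/-Tg2 mice, since both carry the targeted allele. How far the flank is the same in both is not given in the sources used here. The segment was accordingly examined by distance, and the class of probes at which both TDAG51-/- and TDAG51-/-Tg2 stood apart from TDAG51+/+ was counted beside the class at which TDAG51-/- stood apart from both others.

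A probe was called tested when its signal was well above background in at least 1 channel of each array, and a difference was called when it reached 2-fold, or 1 on the log2 scale. By this rule 487 of the 620 members were tested, 164 centromeric and 323 telomeric, under 309 names. The other 133 were too dim, among them 26 of the 48 olfactory receptor probes at the telomeric end. For TDAG51-/-Tg2 over TDAG51+/+, which sets the Cy5 channels of the arrays against each other, 463 members were tested. All ratios are on the log2 scale after normalization, and all intensities are raw spot signals with no unit. Of the pan-neuronal list, kept as a check of the brain label, all 8 genes on the array were tested.

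The Phlda1 probe gave an intensity of 7283 in TDAG51+/+ and 350 in TDAG51-/- on the first array, 17.3-fold lower in the mutant. On the second array it gave 44.1 in TDAG51-/- and 50.5 in TDAG51-/-Tg2, neither well above background, so that Tg2 over wild-type was at least 78.8-fold lower. The mutant channel of this probe thus differed between the arrays and the TDAG51-/-Tg2 channel gave no signal above background. The paper reports transgene expression in the brains of TDAG51-/-Tg2 mice by RT-PCR and immunofluorescence. The missing signal at this probe therefore cannot be read as missing transgene expression. The paper describes the transgenic vector as holding the murine TDAG51 gene and a poly A signal. The exact parts of the gene that the deletion removes and that the vector holds are not given in the sources used here. Whether the probe lies within them was not tested.

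The probes next to Phlda1 are shown because they are the closest readings to the targeted gene on the array and because they disagree. Each line gives the first 30 bases of the 60-base probe, 5′ to 3′, as deposited, with no part set in capitals. The Nap1l1 probe lies at chr10:110960012-110960071, those of LOC382421 at chr10:110963386-110963445, chr10:110963828-110963887 and chr10:110965862-110965921, all on the plus strand of mm7.
Nap1l1, NM_015781: catagttcatctaaacacagcctattttcg
LOC382421, BC054110, the more centromeric: aaagacactaggagagatgtggaacaacac
LOC382421, BC054110, the more telomeric: tacggtctaggggttgtaaattggtatgga
LOC382421, AK048998: ttcaatgtatatggtaattagggaataata
Phlda1, NM_009344: atgactttatttatggacctttggaaggat

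Over the segment as a whole, the ratios were centred near 0 and spread as widely as elsewhere. For TDAG51-/- over TDAG51+/+, 36 members reached 2-fold in the higher direction and 17 in the lower, or 7.39% and 3.49% of those tested. The background over all 33254 tested probes of the array was 5.09% higher and 4.26% lower, and the rest of chromosome 10 had 6.26% and 3.31% of 1087. The median log2 ratio was 0.03 in the segment, 0.06 in the rest of the chromosome and 0.02 over all probes, and the robust SD (the median absolute deviation scaled to a standard deviation) was 0.498, 0.503 and 0.501. For TDAG51-/- over TDAG51-/-Tg2, 36 members were higher and 19 lower, 7.39% and 3.90%, against a background of 4.79% and 3.76% and against 5.52% and 3.31% in the rest of chromosome 10. For TDAG51-/-Tg2 over TDAG51+/+, 15 members were higher and 14 lower, 3.24% and 3.02%, against 3.56% and 3.79% over all probes and 3.97% and 2.55% in the rest of the chromosome. The TDAG51-/- channels differed from each other with a robust SD of 0.148 in the segment and 0.144 over all probes, though single genes differed far more, the globin gene Hba-a1 by 4.04 and Phlda1 by -2.79 for the second array over the first.

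The excess of higher over lower calls in the mutant was not limited to the segment. Chromosome 10 as a whole had 6.61% of its tested probes higher in TDAG51-/- than in TDAG51+/+, above the 3.55% to 6.03% of the 19 other chromosomes taken one by one. With a 3-fold limit in place of 2-fold, 13 of the 19 had a larger share than chromosome 10. The split between higher and lower moved with the dye correction, in the segment and over all probes. Without normalization the median over all probes was -0.19 for TDAG51-/- over TDAG51+/+ and -0.24 for TDAG51-/- over TDAG51-/-Tg2, and those of the segment were -0.18 and -0.27. In that state the segment had 23 higher and 39 lower for TDAG51-/- over TDAG51+/+, and 14 and 46 for TDAG51-/- over TDAG51-/-Tg2. With each array only centred on its median, the splits were 33 and 26, and 28 and 24. For TDAG51-/- over TDAG51+/+ the higher share of called members was 67.9% in the main setting, 55.9% with median centring and 37.1% without normalization. Over all called probes it was 54.5%, 47.2% and 29.8%. For TDAG51-/- over TDAG51-/-Tg2 it was 65.5%, 53.8% and 23.3% in the segment, against 56.1%, 45.3% and 24.6% over all probes.

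**Figure D1:**
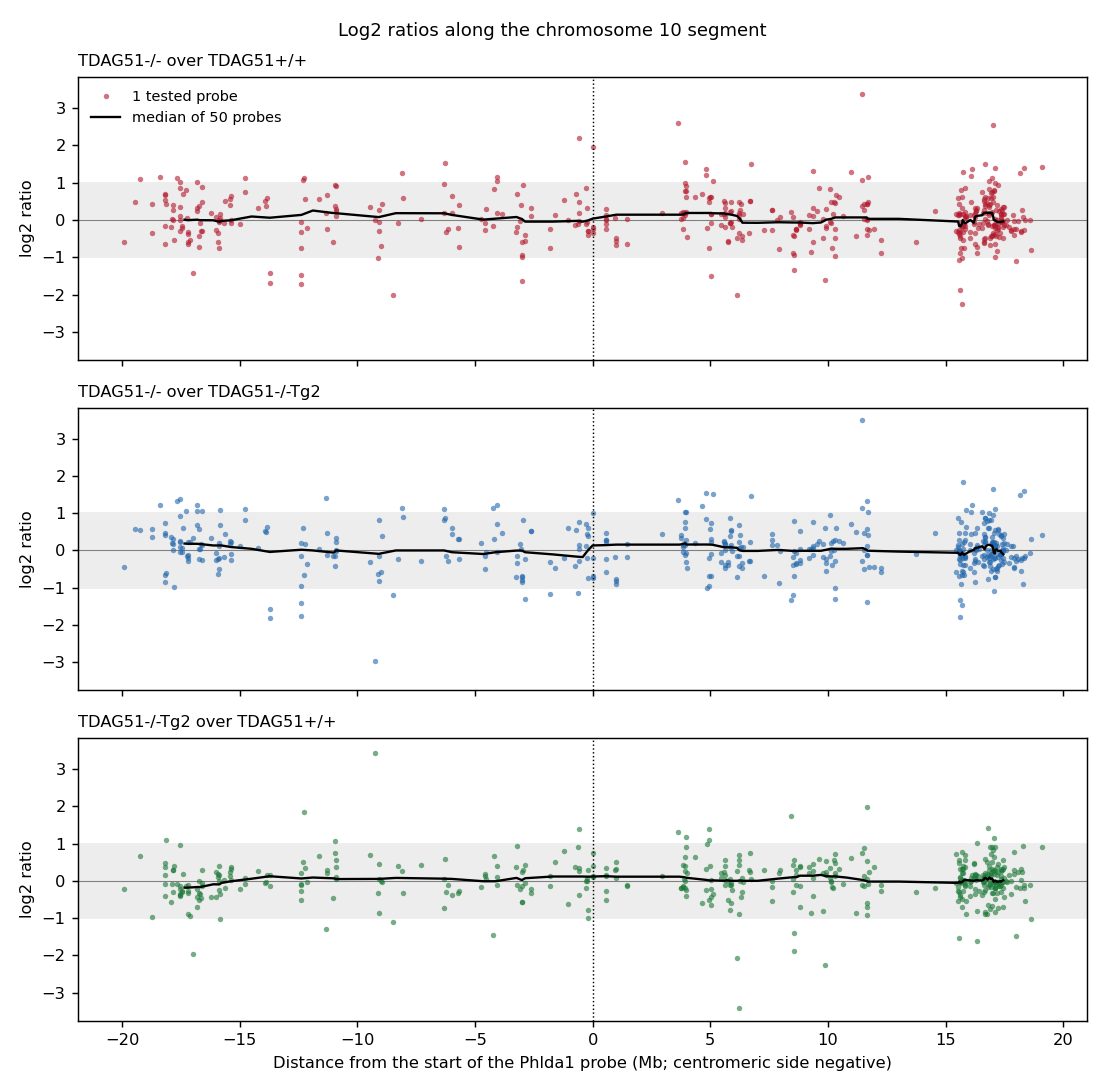
Log2 ratios of the tested members by distance from the start of the Phlda1 probe in Mb, 1 point per probe, with the running median of 50 tested probes as a line, the 2-fold limits as a grey band and Phlda1 as a dotted line. The running median stayed between -0.169 and 0.254 for TDAG51-/- over TDAG51+/+ in the runs made up of members only. These leave out Phlda1 itself and have centres from -17.3 to 17.4 Mb.

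By distance, the probes closest to Phlda1 had the narrowest spread against TDAG51+/+. Within 1 Mb, 26 probes were tested, 2 were at least 2-fold higher in TDAG51-/- than in TDAG51+/+ and 0 lower, and their robust SD was 0.313, though it was 0.565 for TDAG51-/- over TDAG51-/-Tg2. Of the 9 probes between 1 and 2 Mb, 0 passed 2-fold in either direction. Between 2 and 5 Mb, 6 of 50 were higher and 1 lower, with a robust SD of 0.649, the widest of the distance classes. Between 5 and 10 Mb, 5 of 100 were higher and 6 lower, and between 10 and 20 Mb 23 of 302 were higher and 10 lower. Past the segment, the counts were 22 and 15 of 445 between 20 and 40 Mb, 20 and 8 of 242 between 40 and 60 Mb, 10 and 6 of 152 between 60 and 80 Mb, and 16 and 7 of 248 beyond 80 Mb.

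The 2 to 5 Mb class also had the largest share of higher calls in the other comparisons, with 7 of 50 for TDAG51-/- over TDAG51-/-Tg2 and 5 of 48 for TDAG51-/-Tg2 over TDAG51+/+. On the telomeric side, 4 of 26 probes were higher and 0 lower for TDAG51-/- over TDAG51+/+. The counts there were 5 and 1 for TDAG51-/- over TDAG51-/-Tg2, and 5 and 0 for TDAG51-/-Tg2 over TDAG51+/+. On the centromeric side they were 2 and 1 of 24, 2 and 1 of 24, and 0 and 1 of 22. The higher shares over all probes were 5.09%, 4.79% and 3.56%. The 50 probes of the class carried 28 names, and several called probes shared a gene. Runs of 50 neighbouring probes in the rest of chromosome 10 reached 12 probes past 2-fold for TDAG51-/- over TDAG51+/+, 11 for TDAG51-/- over TDAG51-/-Tg2 and 9 for TDAG51-/-Tg2 over TDAG51+/+. These are the highest counts among 208 overlapping runs. The 2 to 5 Mb class had 7, 9 and 6 in the same order. It joins 24 centromeric and 26 telomeric probes and is not such a run, so the counts are not directly comparable. The highest counts in runs inside the segment were 11, 10 and 6.

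**Figure D2:**
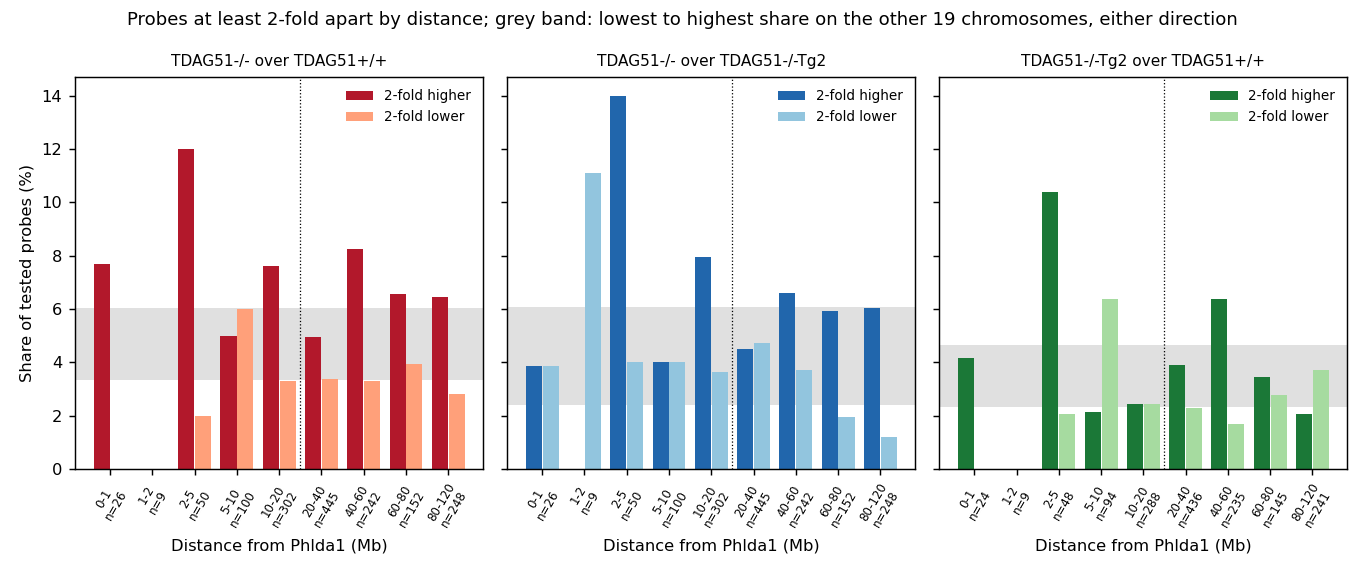
Share of tested probes at least 2-fold higher (dark bars) or lower (light bars) in %, by distance from Phlda1 in Mb with both sides together, for the 3 comparisons. Classes left of the dotted line are the segment, n is the number of probes tested, and the grey band runs from the lowest to the highest share among the 19 other chromosomes; the shares did not fall steadily with distance, and the tall bars belong to classes of 9 and 50 probes.

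The median distance from Phlda1 was 12.3 Mb for the 36 probes higher in TDAG51-/- than in TDAG51+/+ and 12.4 Mb for the 17 lower ones. The other tested members had medians of 13.9 and 14.4 Mb. For TDAG51-/- over TDAG51-/-Tg2 the higher probes had a median of 15.3 Mb and the lower ones 10.3 Mb, against 13.8 and 14.9 Mb. For TDAG51-/-Tg2 over TDAG51+/+ called probes lay nearer in both directions, at 9.24 Mb (15 higher) and 10.6 Mb (14 lower), against 14.8 and 14.2 Mb. None of these distances was tested. On the centromeric side the ratios spread somewhat more widely than on the telomeric side, with robust SDs of 0.545 and 0.461 for TDAG51-/- over TDAG51+/+ and of 0.566 and 0.449 for TDAG51-/- over TDAG51-/-Tg2. Across the other chromosomes the first of these quantities ran from 0.473 to 0.551 and the second from 0.438 to 0.540, so that the centromeric value against TDAG51-/-Tg2 lay above all 19. The sides also differed in median intensity, 681 against 575. Neighbouring genes, each read by its brightest tested probe, did not resemble each other: over 308 neighbouring pairs Pearson's r was 0.001 for TDAG51-/- over TDAG51+/+, -0.019 for TDAG51-/- over TDAG51-/-Tg2 and 0.045 for TDAG51-/-Tg2 over TDAG51+/+. The pairs share the array and overlap in their genes, so these values are descriptions across genes. Over all chromosomes they were 0.079, 0.081 and 0.019 in 22144 pairs.

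Among the closest genes, most readings stayed inside 2-fold. Nap1l1, a nucleosome assembly protein, had intensities of 13075 and 14363 in the TDAG51-/- channels, 21980 in TDAG51+/+ and 24483 in TDAG51-/-Tg2, and after normalization log2 ratios of -0.20 against TDAG51+/+ and -0.19 against TDAG51-/-Tg2. The BC054110 probes of LOC382421, an unnamed transcript, had ratios of -0.36 and -0.23 against TDAG51+/+. The AK048998 probe of the same name, 4.37 kb from Phlda1 and the nearest tested member, read 1184 and 1008 in the TDAG51-/- channels, 322 in TDAG51+/+ and 582 in TDAG51-/-Tg2. The excess in TDAG51-/- was 3.92-fold over TDAG51+/+ and 2.00-fold over TDAG51-/-Tg2, and that of TDAG51-/-Tg2 over TDAG51+/+ was 1.67-fold. Both mutant channels were thus the highest and TDAG51-/-Tg2 lay between them and the wild-type. Neither accession of LOC382421 matched a RefSeq gene.

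Farther out on the centromeric side, Bbs10, a chaperonin-like gene of Bardet-Biedl syndrome, read 191 and 193 in TDAG51-/-, 259 in TDAG51+/+ and 136 in TDAG51-/-Tg2, and its 2 probes gave log2 ratios of -0.99 and -0.78 for TDAG51-/-Tg2 over TDAG51+/+. The first of these passed 2-fold with an offset of 0 in the background correction, at -1.33. Csrp2, which encodes a LIM domain protein of smooth muscle, lay 0.571 Mb from Phlda1 and had the largest difference within 1 Mb. It read 1445 and 1403 in TDAG51-/-, 340 in TDAG51+/+ and 959 in TDAG51-/-Tg2, with log2 ratios of 2.19 for TDAG51-/- over TDAG51+/+, 0.77 over TDAG51-/-Tg2 and 1.38 for TDAG51-/-Tg2 over TDAG51+/+. Wild-type was therefore the lowest at both AK048998 and Csrp2, yet neither met the class shared by both targeted genotypes described further on. TDAG51-/- also stood above TDAG51-/-Tg2 at both, and at AK048998 TDAG51-/-Tg2 was less than 2-fold above TDAG51+/+. The third probe past 2-fold in this interval was 1700020G17Rik, chosen for mention after its values were seen, at 75.0 and 64.1 in TDAG51-/-, 82.7 in TDAG51+/+ and 187 in TDAG51-/-Tg2. The other 23 tested probes within 1 Mb ranged from -0.47 to 0.87 for TDAG51-/- over TDAG51+/+.

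On the telomeric side no tested probe within 2 Mb passed 2-fold. Krr1, a ribosome assembly factor, had ratios of -0.11 against TDAG51+/+ and -0.23 against TDAG51-/-Tg2. Glipr1, of the CAP protein family, had 0.03 and 0.48. Kcnc2, which encodes the voltage-gated potassium channel Kv3.2, was lower in TDAG51-/- at its 3 probes, by log2 ratios of -0.47, -0.56 and -0.68 against TDAG51+/+ and of -0.83, -0.77 and -0.91 against TDAG51-/-Tg2. All were inside 2-fold, but the ratio of -0.77 became -1.07 with each array centred on its median and -1.26 without normalization.

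**Figure D3:**
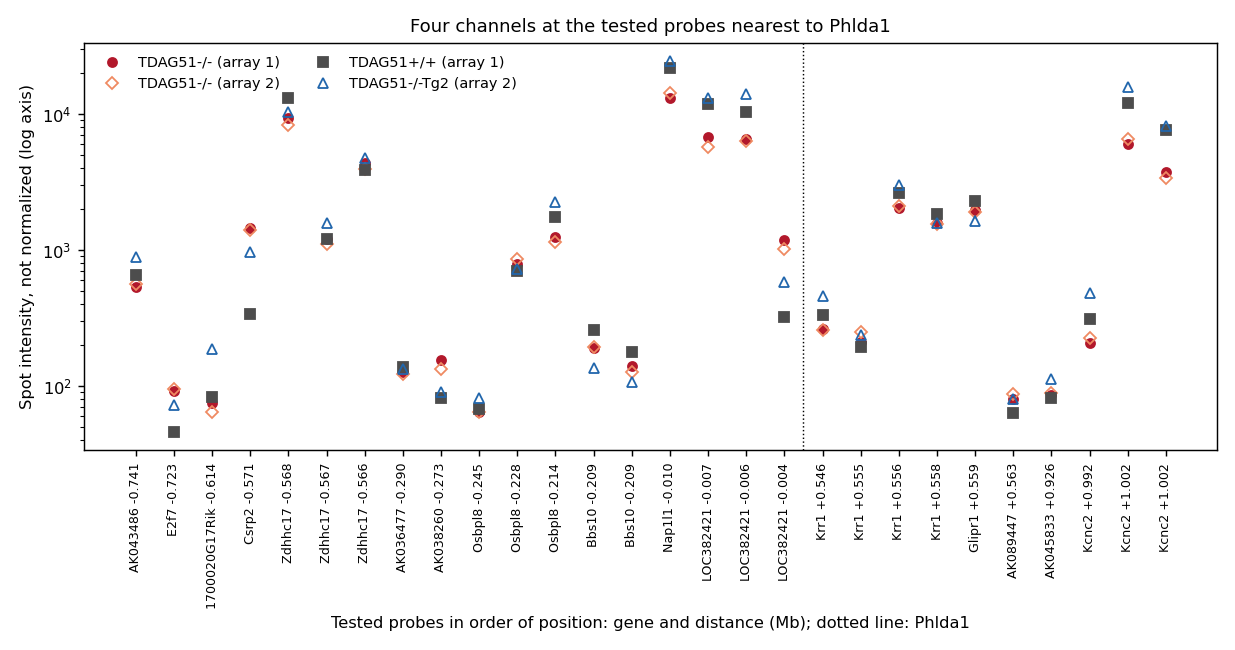
Raw spot intensities (log axis, no unit) in the 4 channels at the tested probes within about 1 Mb of Phlda1, in order of position, with the gene and its distance in Mb on the horizontal axis and Phlda1 at the dotted line. TDAG51-/- lies clearly above TDAG51+/+ at Csrp2 (1445 against 340) and at the AK048998 probe of LOC382421 (1184 against 322). At several others, among them Nap1l1 and Kcnc2, both raw Cy5 signals lie above both TDAG51-/- signals. At some, such as Glipr1, the channels lie closer together.

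Few probes of the segment had both targeted genotypes apart from TDAG51+/+, at a share near that of the rest of chromosome 10. The class required TDAG51-/- and TDAG51-/-Tg2 to differ at least 2-fold from TDAG51+/+ in the same direction and from each other by less than 0.5 on the log2 scale, and the comparisons behind it share channels. It held 5 of the 487 tested members, or 1.03%, against 1.60% of all tested probes and 1.10% of the rest of chromosome 10. With 5 probes, whether the class is rarer in the segment than over all probes cannot be told. The class held 0 of the 85 tested members within 5 Mb, 2 between 5 and 10 Mb and 3 between 10 and 20 Mb. At a share of 1.60%, 85 probes are too few to tell whether the class is rarer or more frequent there. Csrp2 and Tph2, both within 5 Mb, were past 2-fold above TDAG51+/+ in both targeted genotypes. They fell outside the class by the 0.5 limit, with 0.77 and 1.36 for TDAG51-/- over TDAG51-/-Tg2. All 5 read lower in the targeted genotypes than in TDAG51+/+, as did 374 of the 531 probes of this class over the whole array.

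Kifc5c, a kinesin-like sequence that RefSeq lists as a pseudogene, lay 6.13 Mb telomeric and read 124 and 102 in TDAG51-/-, 562 in TDAG51+/+ and 134 in TDAG51-/-Tg2, 4.02-fold and 4.17-fold below TDAG51+/+. A230066D03Rik, matched to Tmcc3, lay 17.0 Mb centromeric and read 256 and 219 in TDAG51-/-, 785 in TDAG51+/+ and 200 in TDAG51-/-Tg2. The 3 probes named Tmcc3 itself had log2 ratios of 0.25 to 1.03 for TDAG51-/- over TDAG51+/+, the opposite direction. Irak3, an inhibitor of interleukin and Toll-like receptor signalling, read 187 and 177 in TDAG51-/-, 527 in TDAG51+/+ and 204 in TDAG51-/-Tg2, 2.53-fold and 2.63-fold lower. The olfactory receptor Olfr786 read 318 and 195, 754 and 275, and its TDAG51-/- channels differed by 0.68 on the log2 scale between the arrays. Its ratio for TDAG51-/-Tg2 over TDAG51+/+ was -1.48, but -0.80 when taken as the difference of the ratios to TDAG51-/-, so that it then left the class. Mettl1, a tRNA methyltransferase, read 103 and 85.7, 240 and 79.4, with the TDAG51-/-Tg2 value below the detection limit, which puts it at least 2.91-fold under TDAG51+/+.

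The second tested probe of Kifc5c and that of Irak3 did not show the class. They gave log2 ratios of -0.48 and -0.43 for TDAG51-/- over TDAG51+/+ and of 0.26 and 0.55 for TDAG51-/-Tg2 over TDAG51+/+. The Kifc5c probes are shown because they lie side by side, at chr10:117101562-117101621 and chr10:117101821-117101882 on the plus strand of mm7, and gave ratios on either side of the limit.
Kifc5c, XM_137270, outside the class: ttgttggaagtgaagaggaatgtagagctg
Kifc5c, AF221104, in the class: tgggttgctctactgttggtacagtgctga

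Probes at which TDAG51-/- stood at least 2-fold apart from both other genotypes were 28 of 487, or 5.75%, 21 of them higher and 7 lower. The background was 4.07% of all tested probes, with 896 higher and 457 lower. The rest of chromosome 10 had 4.78%, with 39 higher and 13 lower. The 19 other chromosomes, each with more tested probes than the segment, ran from 3.26% to 5.04%. The place of the segment above them depended on the setting. With median centring it had 5.54% and they ran up to 5.43%. Without normalization it had 5.95% and they ran from 4.19% to 6.41%. With a 3-fold limit it had 1.03% and they ran from 0.653% to 1.37%. Both ratios behind this class use TDAG51-/- RNA in the same dye. By distance the class held 1 of 26 within 1 Mb, 0 of 9 between 1 and 2 Mb, 3 of 50 between 2 and 5 Mb, 4 of 100 between 5 and 10 Mb and 20 of 302 between 10 and 20 Mb. Without normalization its split turned to 8 higher and 21 lower.

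The largest difference was at Ppm1h, a phosphatase gene 11.4 Mb telomeric, whose leading probe read 742 and 737 in TDAG51-/-, 61.5 in TDAG51+/+ and 61.9 in TDAG51-/-Tg2. Neither Cy5 value was above background, so that the excess in TDAG51-/- was a lower bound, of at least 10.3-fold over TDAG51+/+ and 9.05-fold over TDAG51-/-Tg2. A neighbouring Ppm1h probe read 826 and 796 against 421 and 413, 2.12-fold and 2.21-fold higher, and the third gave log2 ratios of 0.38 and -0.28. Their sequences are shown because 3 probes of 1 transcript gave 3 different sizes. They lie at chr10:122397329-122397388, chr10:122414010-122414069 and chr10:122414210-122414269, on the plus strand of mm7.
Ppm1h, the third probe: ggcatacaaaaccattgaggatgatgactt
Ppm1h, the neighbouring probe: tcttatccaacgaagaagtagcggaagcaa
Ppm1h, the leading probe: aaggtgaaccaagatacagatgacaaagaa

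Smarcc2, a subunit of BAF chromatin remodelling complexes, read 7142 and 6841 in TDAG51-/- against 1462 in TDAG51+/+ and 2699 in TDAG51-/-Tg2, 5.82-fold and 3.16-fold higher. Its brighter probe, at 24298 and 24935 against 26771 and 32916, was 1.39-fold and 1.18-fold higher. Tph2, the tryptophan hydroxylase of brain serotonin neurons, lay 3.62 Mb telomeric and read 775 and 795 in TDAG51-/-, 122 in TDAG51+/+ and 353 in TDAG51-/-Tg2, 6.05-fold and 2.57-fold higher. Mdm1, a microtubule-binding protein of centrioles, read 318 and 314 against 104 and 117. Olfr811 and Olfr796, in the olfactory receptor cluster at the telomeric end, were 2.62-fold and 2.37-fold higher than in TDAG51+/+. The 21 higher probes of the class carried 20 names and had log2 ratios of 1.03 to 3.37 against TDAG51+/+.

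The 7 lower probes carried 5 names. Dspg3, now Epyc, a small leucine-rich proteoglycan, read 659 and 688 in TDAG51-/-, 2500 in TDAG51+/+ and 2870 in TDAG51-/-Tg2, and both of its probes passed 2-fold in both ratios. Atp2b1, a plasma membrane calcium pump, was 3.26-fold lower than in TDAG51+/+ at 1 probe and 2.79-fold lower at another, with log2 ratios of -0.76 and -0.06 at the other two. Centg1, now Agap2, read 183 and 212 in TDAG51-/- against 764 and 875, and its other probe was saturated in both Cy5 channels, so that it gave no usable ratio to TDAG51+/+ and only a bound, of at least 1.10-fold lower, against TDAG51-/-Tg2. C78409, now Slc26a10, was 4.75-fold lower than in TDAG51+/+ and 2.76-fold lower than in TDAG51-/-Tg2. The remaining name was Cart1, now Alx1, a homeobox gene that fell outside the naming rule and is added after its values were seen, with log2 ratios of -2.00 and -1.19.

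Among the genes that differed most for TDAG51-/-Tg2 over TDAG51+/+, those with several tested probes had none but the leading probe past 2-fold. 4930402I19Rik read 2821 in TDAG51-/-Tg2, 223 in TDAG51+/+ and 218 and 296 in TDAG51-/-, a ratio of 10.8-fold for TDAG51-/-Tg2 over TDAG51+/+, and it had no other probe. Usp15, a deubiquitinase, was 3.95-fold higher at 1 probe and ranged from -0.91 to 0.54 on the log2 scale at its other probes. Wdr51b, now Poc1b, of centrioles, was at least 3.07-fold higher. Grip1, a scaffold of AMPA receptors, was 3.34-fold higher at 1 probe, with 0.43 and -0.29 on the log2 scale at the other two. Timeless, of the replication fork, was 2.68-fold higher, with a log2 ratio of -0.66 at its second probe.

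E030045M14Rik, matched to the carboxypeptidase gene Cpm, was at least 9.60-fold lower in TDAG51-/-Tg2 than in TDAG51+/+. On the first array TDAG51-/- read 611 and TDAG51+/+ 896, and on the second TDAG51-/- read 70.1 and TDAG51-/-Tg2 71.5, so that the TDAG51-/- channel was also lower there, with a log2 difference of -2.99. Taken as the difference of the ratios to TDAG51-/-, the log2 ratio of TDAG51-/-Tg2 over TDAG51+/+ was -0.42 in place of -3.41, inside 2-fold. It was the only called member of this comparison whose TDAG51-/- channels were 2-fold apart. Helb, a DNA helicase, was at least 2.88-fold lower, with a log2 ratio of 0.05 at its brighter probe.

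Probes of the same gene often disagreed throughout the segment. Of the 48 names with a probe past 2-fold for TDAG51-/- over TDAG51+/+, 24 had several tested probes, at 16 of these all probes had the same sign, and at 1 all passed 2-fold. For TDAG51-/- over TDAG51-/-Tg2 the counts were 47, 27, 16 and 1. For TDAG51-/-Tg2 over TDAG51+/+ they were 28, 17, 3 and 1. The called probes of this last comparison had a median intensity of 296, against 653 for the other tested members, and 8 of the 29 had a channel not above background.

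**Figure D4:**
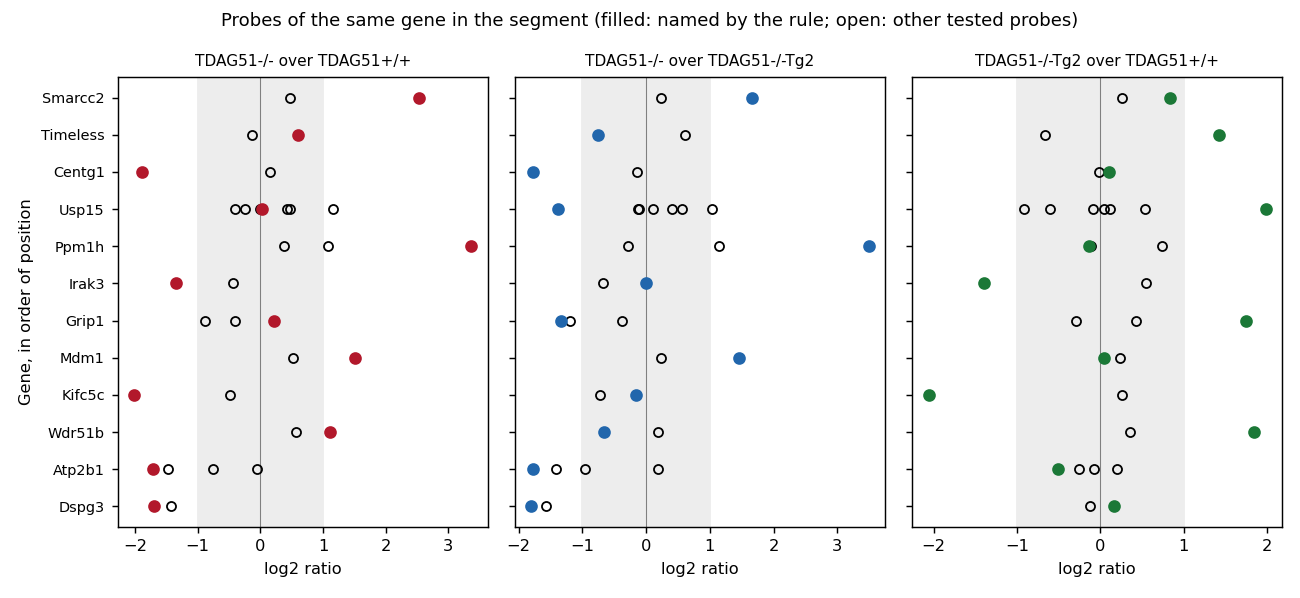
Log2 ratios of all tested probes of the genes named in both classes or as higher in TDAG51-/-Tg2 that have several, in order of position, for the 3 comparisons, with the probe that the naming rule chose filled, the other tested probes open and the 2-fold limits as a grey band. Both Dspg3 probes lie past 2-fold (-1.70 and -1.42 against TDAG51+/+), and at most other genes the open points fall inside the band. The open Centg1 points rest on saturated Cy5 signals and are not exact.

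Most genes of the lists drawn from the segment stayed inside 2-fold. In all lists each gene was counted by its brightest tested probe unless stated otherwise. Of the 15 synaptic and neuronal genes 5 were at least 2-fold higher in TDAG51-/- than in TDAG51+/+ and 0 lower, beside 5.09% and 4.26% of all tested probes, with a list median of 0.20 against 0.02 over all probes. These were Tph2, the vasopressin receptor gene Avpr1a at 1.29, the receptor phosphatase gene Ptprr at 1.21, the neurexophilin gene Nxph4 at 1.18 and Lin7a, of presynaptic scaffolds, at 1.06. Against TDAG51-/-Tg2, 3 were higher and 1 lower, beside 4.79% and 3.76% of all probes, the last being Syt1, the calcium sensor of synaptic vesicles, at -1.29. The 3 Ptprr probes all lay between 0.69 and 1.36 against TDAG51+/+. The 5 Syt1 probes all lay on the lower side, from -1.64 to -0.56, with 1 of them past 2-fold. The 5 Lin7a probes disagreed, from -0.17 to 1.16, with 2 of them past 2-fold. Ptprr, Tph2 and Lin7a lie between 2 and 5 Mb from Phlda1, as does Thap2, added after its values were seen, whose 3 probes ranged from 0.79 to 1.57.

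Of the list drawn from the dense cluster around Cdk4 and Gli1, about 15.6 Mb to 16.2 Mb telomeric, 12 genes were tested, 0 passed 2-fold against TDAG51+/+ and 1, Arhgap9, was higher against TDAG51-/-Tg2 at 1.09. Beside this list and the next ones, 5.09% of all tested probes were higher and 4.26% lower against TDAG51+/+. Against TDAG51-/-Tg2 the shares were 4.79% and 3.76%. The second, dimmer probe of Lrp1, a lipoprotein receptor on this list, was higher in both, at 1.37 and 1.22. Centg1, C78409 and Nxph4, which are not on this list, lie in the same interval and passed 2-fold against TDAG51+/+. Of the list from Prim1 to Cdk2 farther out, 14 genes were tested and 1, the interferon signalling factor Stat2 at 1.06, was higher against TDAG51+/+, and 3 were higher against TDAG51-/-Tg2. When any tested probe was allowed to count, 4 of the 14 were higher against TDAG51+/+ and 0 lower, the others being Smarcc2, the receptor tyrosine kinase gene Erbb3 at 1.39 and Baz2a, of chromatin remodelling, at 1.49. A gene with several probes is called more easily in this way, and no matching share over all genes was computed. The proteoglycan genes Dcn and Lum, neighbours of Dspg3, had ratios of 0.37 and 0.60 against TDAG51+/+ and did not share its direction. Of the growth arrest and signalling list 1 of 6 genes passed 2-fold, Btg1, an antiproliferative factor, at 1.14 against TDAG51+/+ and 1.10 against TDAG51-/-Tg2. Kitl, the ligand of c-Kit, read 830 and 797 in TDAG51-/-, 814 in TDAG51+/+ and 343 in TDAG51-/-Tg2 and was alone in its list of 4 to pass 2-fold by the brightest probe. The myogenic genes Myf5 and Myf6 were not tested, and of the lysozyme and cytokine list 1 gene was, Lyzs, at 0.22. Of the 22 tested olfactory receptor probes 2 were higher and 1 lower than in TDAG51+/+, 9.09% and 4.55%, with a median log2 ratio of -0.16. The 395 tested olfactory receptor probes on other chromosomes had 3.04% higher and 7.34% lower, with a median of -0.17.

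Markers of brain regions differed between the channels along with these members. The cerebellum and hindbrain list had 14 of 19 tested genes at least 2-fold higher in TDAG51-/- than in TDAG51+/+ and 0 lower, with a median of 2.24, and its summed intensity was 380562 and 390205 in TDAG51-/- against 170516 and 168897 in TDAG51+/+ and TDAG51-/-Tg2. The striatum list had 9 of 11 lower and 0 higher, with a median of -1.47 and summed intensities of 53719 and 50624 against 188871 and 199392. The cortex and hippocampus list had a median of -0.68, with 3 of 10 lower and 1 higher, and the blood list -1.42, with TDAG51-/- sums of 14291 and 95215, unlike between the arrays. For TDAG51-/-Tg2 over TDAG51+/+ the region lists had medians of -0.03, -0.08 and 0.02. The part of these lists in the members at which TDAG51-/- stood apart from both other genotypes was not tested, and fewer cells of a type cannot be told apart from less RNA per cell. None of the markers of the cerebellum, striatum or cortex lists is a member of the segment.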

How the data were processed

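Total RNA from whole brains was hybridised on 2 two-colour Agilent arrays of 45018 spots. The authors deposited 1 scanner file per array with the spot intensity in each channel and a log10 ratio of Cy5 over Cy3, made by Feature Extraction version 9.5.3.1 per the file headers, and a table of log2 ratios, found here to be Cy3 over Cy5. Positions and gene names are those of the array design (mm7), and 499 of the 620 members matched RefSeq for GRCm38.p6, whose coordinates were not used.

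Intensities were corrected with normexp (offset 50), dye-normalized by loess without control spots, and quantile-normalized on average intensity between the arrays (limma 3.58.1, R 4.3.3). Outlier spots, 375 and 300, were left out, and spots of a probe averaged. Repeated spots had a median SD of 0.063 and 0.065 in the log2 ratio. A fold is given as a lower bound where the dim channel was not above background or the bright one was saturated. The code was tested on simulated data.

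Named genes were the 3 nearest on each side, up to 10 in each class, the 5 with the largest difference each way between TDAG51-/-Tg2 and TDAG51+/+, the other probes of these, and the genes of the lists. The result of 1 gene that this rule names is not reported here. Members, lists and rules were chosen with earlier results of these data known. With 1 array per comparison there is no test. The number of arrays limits the precision.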

Additional observations from a re-analysis of the deposited data

How the results depend on the processing

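The counts of members past 2-fold depended on the background correction, and the background moved with them. For TDAG51-/- over TDAG51+/+, TDAG51-/- over TDAG51-/-Tg2, TDAG51-/-Tg2 over TDAG51+/+, the class of both targeted genotypes apart from TDAG51+/+ and the class of TDAG51-/- apart from both, the main counts were 53, 55, 29, 5 and 28. In the same order they were 92, 89, 55, 11 and 47 with an offset of 0, 105, 109, 62, 13 and 58 from the software's own log ratio, and, for the first, second and last, 104, 109 and 59 from the deposited log2 ratio. A 1.5-fold limit gave 140, 137, 94, 20 and 80, and a 3-fold limit 13, 8, 10, 1 and 5. The brightest probe of each name alone gave 35, 33 and 17 for the ratios and 18 for the last class. A segment of 10 Mb on each side gave 20, 20, 15, 2 and 8, and one of 5 Mb 9, 12, 7, 0 and 4. Within 5 Mb, 8 of the 9 were higher in the first comparison, 8 of the 12 in the second and 6 of the 7 in the third. These were 88.9%, 66.7% and 85.7% of the called probes, against 54.5%, 56.1% and 48.5% over all probes. Without a filter on dim probes the class of both targeted genotypes had 8. The other 29 of 67 counts were within 1.5 times the main count.

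With an offset of 0 the shares in the segment and over all probes were 18.9% and 15.9% for TDAG51-/- over TDAG51+/+, and 2.26% and 2.79% for the class of both targeted genotypes, in which 6 were then higher and 5 lower. The share of that class in the segment stayed below that over all probes in every setting run. All settings reread the same 2 arrays, however, and the main count was 5, too few to call the class rarer there. Of the 464 values of named genes under another background correction or normalization, 259 moved by more than the SD between repeated spots. Of the 234 whose main value was past 2-fold, 4 came inside it, those of Olfr786 and E030045M14Rik for TDAG51-/-Tg2 over TDAG51+/+, and 0 changed sign. Of the 230 inside 2-fold, 20 passed it. Leaving out the normalization between arrays was added for these values after seeing the data. With 1 array per comparison no replicate was left out. No paired analysis was possible because each comparison has 1 array. Dim probes limit the reading, as 133 of 620 members were not tested.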
